A study of Mus musculus with 3 samples.

Results

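The genes described are the integrin chains Itga and Itgb with a number, the laminin chains Lama, Lamb and Lamc, the nidogens Nid1 and Nid2, perlecan (Hspg2) and agrin (Agrn). They were chosen by gene symbol in the platform annotation. The rule itself uses no measured value, but it was set with earlier results of these data known. The annotation gave 69 probe sets for 32 genes, of 18193 genes with a probe set of 1 symbol. There were 10 integrin alpha genes, 8 integrin beta genes, 5 laminin alpha genes, 3 laminin beta genes, 2 laminin gamma genes, and 4 linker and proteoglycan genes.

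RNA came from dental papillae of ICR mice at embryonic day 16 (E16), embryonic day 18 (E18) and postnatal day 3 (P3). The papilla is the mesenchymal core of the tooth germ, and here it was freed by enzyme treatment from the first molar germ of the lower jaw. The labels give no genotype or treatment for any stage, and each RNA sample was pooled from over 20 papillae. Each stage has 1 array, so there is no spread between replicates, no test and no p-value, and every difference is between single pooled samples. With so few arrays, precision is limited throughout.

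Integrins are cell surface receptors made of an alpha and a beta chain, and they tie the cytoskeleton to the extracellular matrix. Laminins are cross-shaped trimers of an alpha, a beta and a gamma chain that form the sheet of a basement membrane; nidogens link that sheet to type IV collagen, and perlecan and agrin are its heparan sulfate proteoglycans. In the tooth germ a basement membrane separates the papilla from the inner enamel epithelium, and odontoblast precursors line up against it before dentin is laid down.

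The file holds ratios within each probe set, so a signal on 1 scale for the 3 arrays was recovered from them. Signals describe the same probe set across stages and do not rank genes. Signals below a floor of 82.0, the pooled median of all probe sets, were set to it before log2 differences were taken. Where 1 side lay below the floor, the difference is a bound and is written "at least". A gene was represented by its brightest probe set, and it was measured in a comparison when at least 1 of both arrays reached the floor. Of the 32 genes, 22 reached the floor on all 3 arrays, 8 on some and 2 (Itga2 and Itga7) on none. Of the 69 probe sets, 26 stayed below it on every array. A member measured only because it was high at 1 stage could differ in 1 direction only.

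Facts of the arrays bear on all that follows. Relative to the E16 array, the 18 spike-in probe sets for hybridisation read a median 2.17 times as high at E18 and 1.04 times at P3. The actin ratio of 3' to 5' signal, a measure of how complete the labelled RNA is, was 3.87 times its E16 value at E18 and 2.46 times at P3; for Gapdh these were 1.42 and 0.355. For 4047 genes with probe sets measured on both the E16 and E18 arrays, the brightest probe set and the next gave log2 differences a median 0.52 apart, and in 10% of them over 1.40 apart. The part of these array differences in the results was not tested. The 3 arrays serve all comparisons, so the E18 array enters both of its steps. With bulk RNA, fewer cells of a type and less RNA per cell cannot be told apart.

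The markers of the papilla itself were present, with all 11 dental mesenchyme markers at or above the floor on every array. Their summed signals were 14017, 7511 and 6886. At E18 compared with E16, 8 of them stood lower by 2-fold or more and 2 higher, against 8.13% and 8.10% of all genes. Odontoblast markers (6) summed to 896.9, 9342 and 32769. Of this P3 sum, 18982 came from Dspp and 6650 from Col1a1. At P3 against E18, 4 of the 6 stood higher by 2-fold or more and 1 lower (Dmp1, 4.75-fold), against 4.07% and 11.8% of all genes. Of 16 epithelial markers, 14, 14 and 13 reached the floor at E16, E18 and P3, with summed signals of 9160, 27466 and 13087. Of the P3 sum, 5377 came from Ambn and 2340 from Amelx, which read 825.5 and 51.5 at E16. The sums therefore do not give the course of each marker. Among the 15 measured at P3 against E16, 4 stood lower by 2-fold or more and 3 higher, against 15.6% and 6.57% of all genes. Their median on the log2 scale was -0.44. Endothelial markers (12) summed to 5022, 2655 and 2768, with Pecam1 and Tie1 below the floor throughout. Leukocyte markers (15) summed to 3465, 6246 and 9691. Schwann cell markers (7) summed to 495.9, 409.0 and 879.9, and Sox10, a glial regulator, read 234.3, 128.0 and 212.3. The higher Schwann cell sum at P3 rests on Fabp7, which read 58.9, 73.5 and 532.2. Mural cell markers (11) summed to 6596, 6595 and 8785 and platelet markers (6) to 543.6, 751.7 and 1198. Of 9 skeletal muscle markers, 6 were below the floor on all arrays. All these sums weigh markers by recovered signal, and high recovered signals may be understated.

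**Figure D1:**
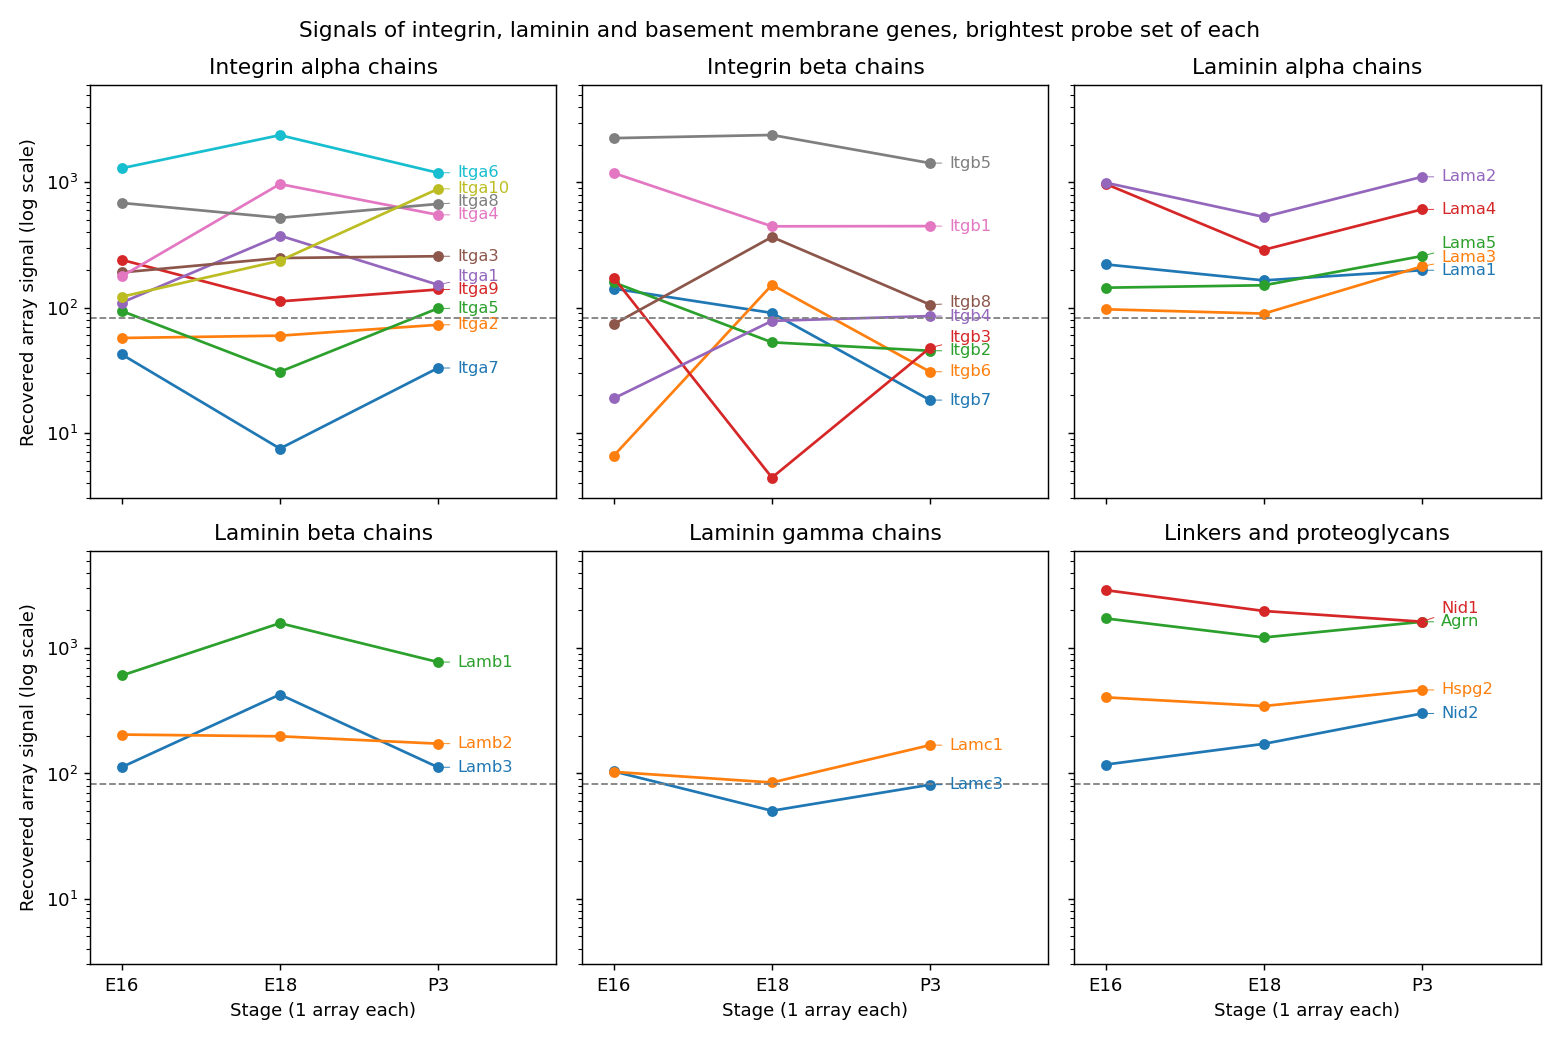
Recovered signal (vertical log axis) of the brightest probe set of each gene at E16, E18 and P3, in panels by subfamily; each point is 1 array and the dashed line is the floor of 82.0. Lamb1, Lamb3, Itga1, Itga4, Itgb6 and Itgb8 were highest at E18, Lama2 and Lama4 were lowest there, and Itga10 was highest at P3; heights are not comparable between genes.

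Between E16 and E18 the members that stood higher were Itga4, Itgb8, Lamb3, Itga1 and Lamb1, and the lower ones were Lama4, Itgb1, Itga9 and Itgb3. This comparison asks what changed in the papilla over the time in which the first odontoblasts appear. Of 29 members measured, 5 (17.2%) stood higher at E18 by 2-fold or more, where 8.10% of all 12030 genes measured were. The lower ones were 4 of 29 (13.8%), against 8.13% of all genes. The median log2 difference was -0.20 for the members and -0.04 for all genes. Both shares lie above those of all genes, by a handful of genes and with no replicate behind any of them.

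Among the alpha chains, Itga4, part of a receptor for fibronectin and the vascular adhesion molecule Vcam1, read 178.6 at E16, 970.0 at E18 and 550.9 at P3. It was 5.43-fold higher at E18 than at E16 and 3.08-fold higher at P3. Its other probe sets gave less. A second one read 153.4, 203.2 and 234.5, and another read 78.7, 141.4 and 81.8, so E18 was 0.41 and at least 0.79 above E16 by these on the log2 scale. All 3 measured probe sets put E18 above E16, and the size rests on the brightest. The remaining pair stayed below the floor.

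Itga1, the alpha chain of a collagen receptor, read 110.0, 376.1 and 152.4 in stage order. E18 was 3.42-fold above E16, and P3 was 2.47-fold below E18, ending 1.39-fold above E16. Its other probe set was below the floor on every array (18.2, 70.6 and 33.1) and so was not measured.

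Itga6, whose protein pairs with the Itgb4 chain in hemidesmosomes and with the Itgb1 chain in other laminin receptors, read 1299, 2384 and 1194. E18 was 1.83-fold above E16, under the threshold. P3 was lower than E18 by just under 2-fold, and the log2 difference was -0.49 after quantile normalization, which forces the 3 arrays to the same distribution. Its other probe set read 1471, 1645 and 399.2. By the latter, P3 was lower than E16 by 1.88 on the log2 scale, where the brightest gave -0.12. Which of them is the brighter is not certain, because recovered levels this high may be understated.

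Itga9, part of a tenascin and osteopontin receptor, read 240.8, 112.3 and 139.7, and its E18 value was 2.14-fold below that of E16. Another probe set of Itga9 read 116.6, 88.3 and 81.9 and gave a log2 difference of -0.40. Itga8, whose protein binds nephronectin, read 685.8, 521.4 and 673.4, and Itga3, part of a laminin receptor of epithelia, 191.3, 249.1 and 257.5. Neither differed 2-fold in any comparison. Itga5, the alpha chain of the classical fibronectin receptor, read 94.0, 30.8 and 98.8, so that only bounds of 1.15-fold lower and 1.20-fold higher flank the E18 value. Itga2 (57.3, 59.8 and 73.0) and Itga7 (42.3, 7.5 and 33.0) were not measured in any comparison.

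Itga10, the alpha chain of a collagen receptor best known from cartilage and other skeletal mesenchyme, had the greatest difference between E16 and P3 among members above the floor on both arrays. Its only probe set read 122.4 at E16, 237.2 at E18 and 887.2 at P3. The signal was 1.94-fold higher at E18 than at E16, 3.74-fold higher at P3 than at E18 and 7.25-fold higher at P3 than at E16. It stayed past 2-fold in both P3 comparisons under all 8 alternatives that give a gene value, with log2 differences of 2.44 to 3.15 at P3 against E16.

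Among the beta chains, Itgb8, which pairs with the alpha chain Itgav and takes part in activating latent TGF-beta, read 73.9 at E16, 366.9 at E18 and 105.8 at P3. The E18 signal was at least 4.47-fold above that of E16, and P3 was 3.47-fold below E18. Itgb6, an Itgav partner of epithelia, read 6.6, 152.0 and 30.8. Only its E18 value reached the floor, so E18 was at least 1.85-fold above either other stage. Its second probe set was below the floor on every array (51.0, 47.6 and 54.7).

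Itgb4, the hemidesmosome chain, read 18.9, 78.5 and 85.7, of which only the P3 value reached the floor, by a bound of 1.04-fold. Its partner Itga6 was described above. Itgb4 thus lay near or below the floor at all stages.

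Itgb1, the beta chain of most matrix-binding integrins, read 1186 at E16, 446.2 at E18 and 447.9 at P3 by its brightest probe set. The signals at E18 and P3 were 2.66-fold and 2.65-fold below that of E16. None of its other 5 probe sets reached the floor on any array. The median of the deposited ratios over all 6 turned the E18 difference from -1.41 to 0.04, and left P3 against E16 at -0.75. The lower Itgb1 signal at E18 therefore rests on 1 probe set.

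Itgb5, another Itgav partner, was represented by 4 probe sets, all at or above the floor on every array. The brightest read 2257, 2391 and 1426. The others read 1762, 1122 and 572.3, then 882.4, 1063 and 395.6, and then 1147, 500.4 and 293.8. All 4 put P3 below E16, by log2 differences of -0.66 to -1.97, and all 4 put P3 below E18, by -0.75 to -1.43. For E18 against E16 they split, from -1.20 to 0.27. The brightest probe set gave the smallest difference at P3 against E16, 1.58-fold, while the other 3 were past 2-fold.

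Itgb3, which forms receptors for vitronectin and fibrinogen, read 172.5, 4.4 and 47.8, so both later stages were at least 2.10-fold below E16. Its other probe set stayed far below the floor (9.4, 7.6 and 8.5). Itgb2, the common chain of leukocyte integrins, read 159.0, 52.9 and 45.3, and Itgb7, a lymphocyte homing chain, 141.9, 90.8 and 18.3. Both later stages were at least 1.94-fold below E16 for Itgb2, while the summed leukocyte markers were 1.80 times as high at E18 and 2.80 times as high at P3.

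Laminin chains differed by subfamily. Lamb3, found in the laminin of epithelial basement membranes together with Lama3, read 112.5 at E16, 426.9 at E18 and 112.1 at P3. That is 3.79-fold higher at E18 than at E16 and 3.81-fold lower at P3 than at E18, with the same signal at both ends. It kept both calls under all 7 alternatives that gave a value; its only probe set is of a kind that may detect several transcripts.

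Lamb1, a chain of the widespread laminins of early basement membranes, read 605.9, 1584 and 775.1. It was 2.61-fold higher at E18 than at E16 and 2.04-fold lower at P3 than at E18. Other probe sets read 170.9, 279.7 and 181.9, and 95.7, 131.4 and 88.9. All 3 were highest at E18, but only the brightest passed 2-fold, since the others gave 0.71 and 0.46 for E18 against E16 on the log2 scale. Lamb2, a chain that takes the place of Lamb1 in many mature basement membranes, read 204.5, 198.0 and 173.0 and differed least in this subfamily over the first step.

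**Figure D2:**
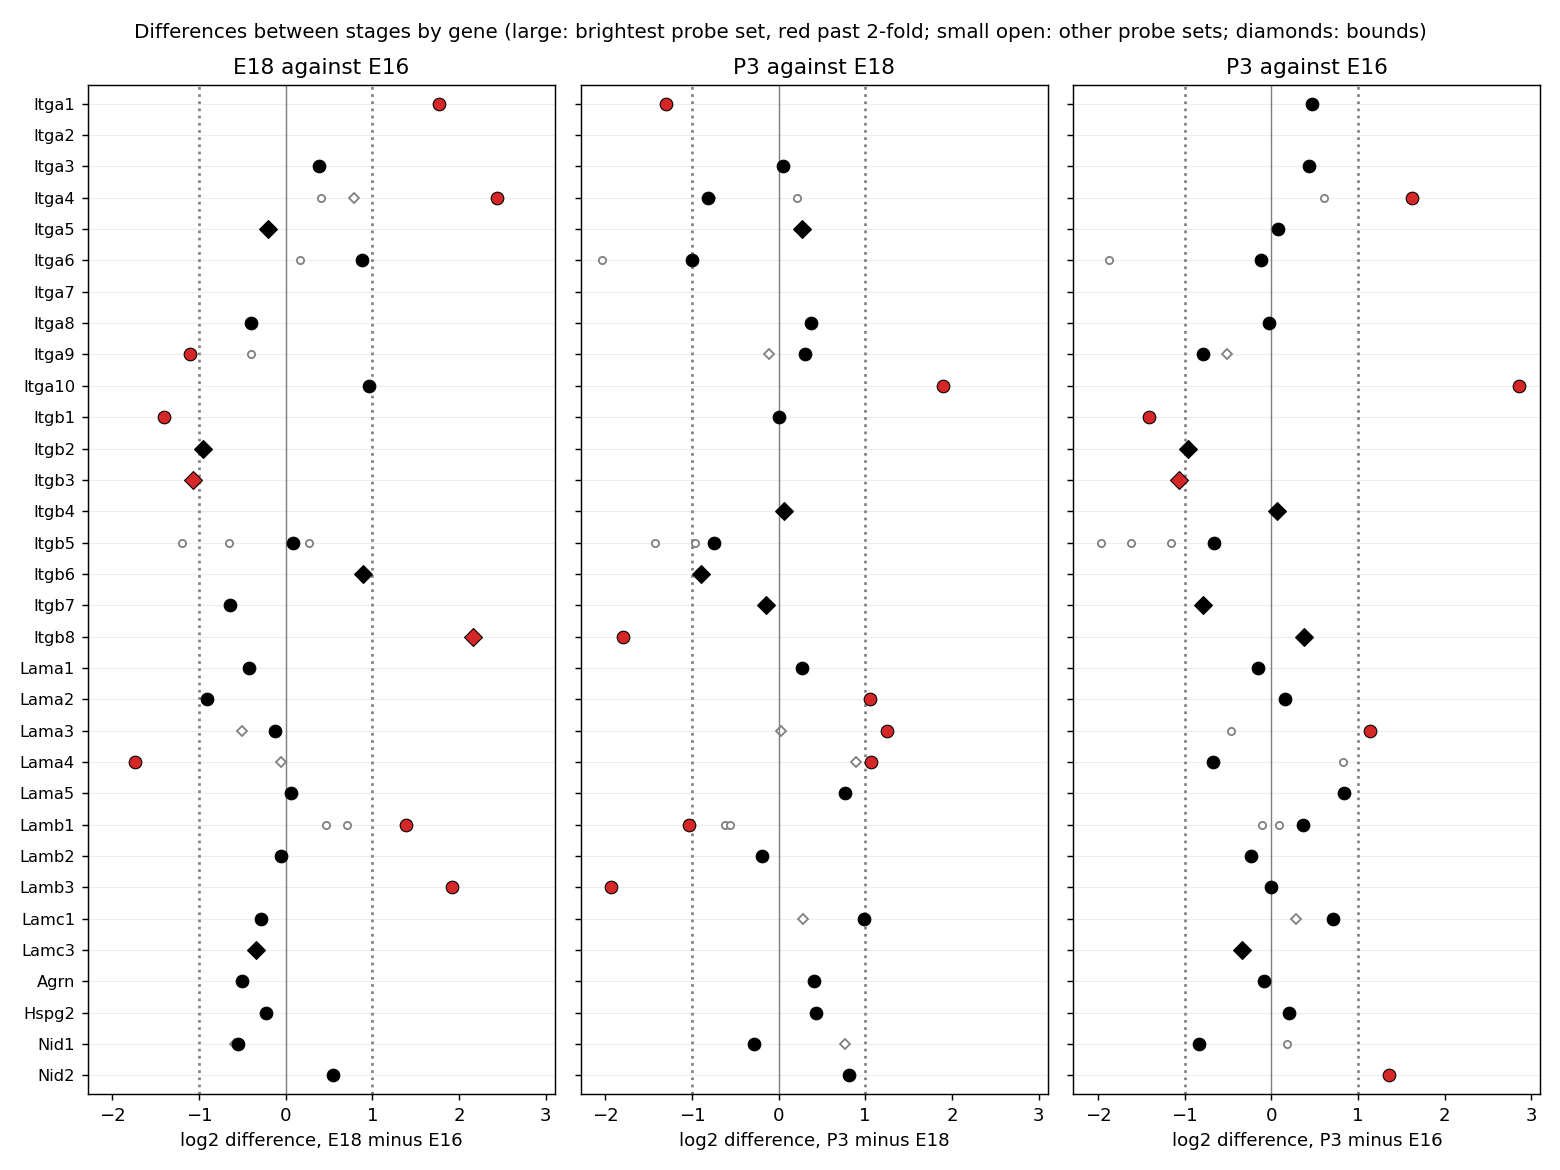
Log2 difference (horizontal axis) of each gene in the 3 comparisons; large symbols are the brightest probe set, red where past 2-fold (dotted lines), small open symbols are other measured probe sets and diamonds are bounds. Of the members measured, 5 and 4 were higher and lower at E18 than at E16, 4 and 4 at P3 than at E18, and 4 and 2 at P3 than at E16. The shares of all genes were 8.10% and 8.13%, 4.07% and 11.8%, and 6.57% and 15.6%. Probe sets of Itga4, Itga6, Itgb5, Lama3 and Lama4 lie far apart.

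Of the 5 laminin alpha genes, 0 were higher and 1 was lower at E18 by 2-fold or more, against 8.10% and 8.13% of all genes. The lower gene, Lama4, the alpha chain of endothelial and mesenchymal basement membranes, read 971.1, 289.9 and 609.3. Its E18 signal was 3.35-fold below E16, and its P3 signal was 2.10-fold above E18. Its second probe set read 85.8, 8.3 and 151.6, with E18 alone below the floor. The median over the measured probe sets gave -0.90 and 0.98 in these steps on the log2 scale, just short of the threshold. The second probe set enters these medians as bounds (-0.06 and 0.89), so the medians are bounds too. Both probe sets were lowest at E18, and each of these calls held in 7 of 8 alternatives. Of 10 endothelial markers measured, 5 were lower at E18 by 2-fold or more and 0 higher, against 8.13% and 8.10% of all genes. Kdr was among the 5 (2571, 1062 and 846.3), while Cdh5 read 196.9, 174.6 and 244.3. The part of endothelial cells in the Lama4 values was not tested.

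Lama2, the chain best known from muscle and nerve but also made by mesenchyme, read 994.5, 530.0 and 1108. Its E18 signal was 1.88-fold below E16, and it was 2.09-fold higher at P3 than at E18, a call that held under all 8 alternatives. Lama1, the chain of the earliest embryonic basement membranes, read 221.5, 165.1 and 199.1. Lama5, the broad epithelial and vascular chain of later basement membranes, read 144.4, 151.0 and 258.3, so that P3 was 1.79-fold above E16. Lama3 read 97.1, 89.7 and 213.6, which is 2.20-fold higher at P3 than at E16. Its second probe set read 115.7, 63.8 and 83.6, a log2 difference of -0.47, so the direction for Lama3 depends on the probe set.

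Of the gamma genes, Lamc1, the gamma chain of most laminins, read 103.0, 84.7 and 168.3, with P3 1.99-fold above E18 (a log2 difference of 1.06 after quantile normalization), and its second probe set read 11.3, 7.6 and 99.9. Both were highest at P3. Lamc3 read 103.8, 50.4 and 81.3, which puts both later stages at least 1.27-fold below E16.

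Among the linkers and proteoglycans, Nid2 read 117.8, 172.4 and 301.3 and was 2.56-fold higher at P3 than at E16, the only call among these 4 genes. Nid1, the other nidogen, read 2905, 1982 and 1628, so P3 was 1.78-fold below E16. Another probe set of Nid1 read 123.6, 75.7 and 139.6 and put P3 0.18 above E16 on the log2 scale. The nidogen genes thus differed in opposite directions by their brightest probe sets. Hspg2 read 405.2, 345.3 and 464.4, and Agrn 1727, 1218 and 1624. Both were lowest at E18, 1.17-fold and 1.42-fold below E16.

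The members that were 2-fold higher at E18 did not all have the same course. Itga1, Itgb8, Lamb1 and Lamb3 came down again by 2-fold or more at P3, whereas Itga4 was 1.76-fold lower and stayed 3.08-fold above E16. Beside them, 11 of 15 epithelial markers measured were higher at E18 by 2-fold or more and 0 lower, against 8.10% and 8.13% of all genes. Cdh1 (E-cadherin) read 276.5, 1105 and 386.5, Trp63, a regulator of basal epithelium, 532.1, 2400 and 533.5, Dsp (desmoplakin) 1452, 5270 and 970.0, and Krt5 2069, 4821 and 752.2. At P3 against E18, 11 of 14 epithelial markers were lower and 1 higher, against 11.8% and 4.07% of all genes. Cdh1, Trp63, Dsp and Krt5 were thus highest at E18, as were Itga1, Itgb8, Lamb1 and Lamb3. Other epithelial markers were not, since Ambn and Amelx were 1.67-fold and 4.14-fold higher at P3 than at E18. The part of epithelial cells in these results was not tested. Of 12 leukocyte markers measured, 3 were higher at E18 by 2-fold or more and 0 lower, against 8.10% and 8.13% of all genes. Their courses differed, since Ptprc read 148.6, 127.2 and 185.7, and Csf1r 1256, 2135 and 3542. Laptm5, named after its values were seen, was highest at E18 by its brightest probe set (806.8, 1472 and 897.6). Its other measured probe sets were not, at 406.5, 395.6 and 444.3, then 355.1, 244.0 and 167.8, and then 133.6, 199.0 and 233.7. These are the values of single leukocyte markers. The part of leukocytes in these results was not tested either.

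**Figure D3:**
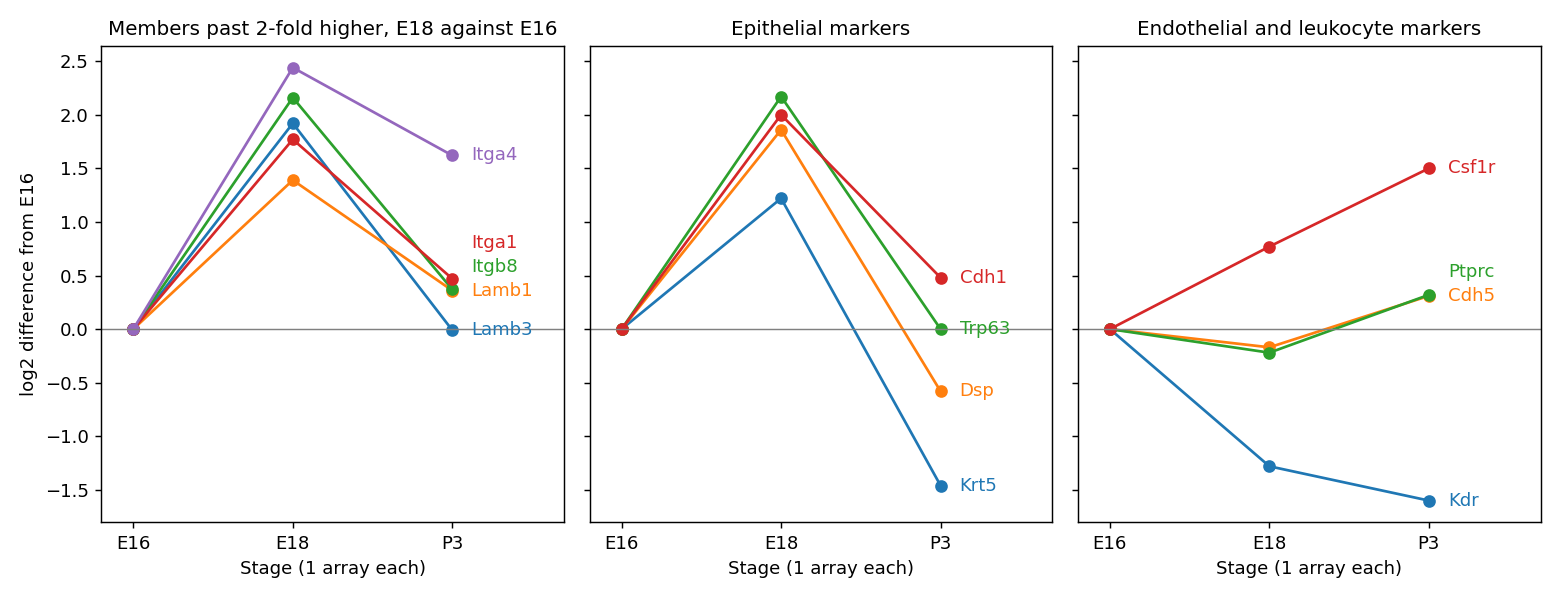
Log2 difference from E16 (vertical axis, signals below the floor set to it) at the 3 stages for the 5 members whose E18 signal was 2-fold or more above E16, for 4 epithelial markers and for 4 endothelial or leukocyte markers; each point is 1 array. The members and these 4 epithelial markers were highest at E18, while Kdr was lower and Csf1r higher at each later stage. Itgb8 starts from the floor, so its values are bounds.

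Because these 5 members were high on the same array, the 250 bases before their annotated start are shown, with that of Itga10, which was highest at P3, for comparison. The sequences are RefSeq promoters of build GRCm38.p6, written 5′ to 3′ on the strand of the gene, and 21 of the 32 genes had an entry. Itga1 is at chr13:115101965-115102214 (minus strand), Itga4 at chr2:79255176-79255425 (plus), Itgb8 at chr12:119238277-119238526 (minus), Lamb1 at chr12:31265043-31265292 (plus), Lamb3 at chr1:193301744-193301993 (plus, the first of 2 starts listed) and Itga10 at chr3:96645334-96645583 (plus). Capitals mark the E-box CANNTG, to which basic helix-loop-helix factors such as Twist1 bind, and the GC box GGGCGG on either strand.
Itga1: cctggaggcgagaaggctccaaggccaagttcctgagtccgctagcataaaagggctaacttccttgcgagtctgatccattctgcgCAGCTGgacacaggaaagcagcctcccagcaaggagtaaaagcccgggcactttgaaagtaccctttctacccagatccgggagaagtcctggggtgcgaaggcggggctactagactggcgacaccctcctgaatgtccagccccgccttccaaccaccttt
Itga4: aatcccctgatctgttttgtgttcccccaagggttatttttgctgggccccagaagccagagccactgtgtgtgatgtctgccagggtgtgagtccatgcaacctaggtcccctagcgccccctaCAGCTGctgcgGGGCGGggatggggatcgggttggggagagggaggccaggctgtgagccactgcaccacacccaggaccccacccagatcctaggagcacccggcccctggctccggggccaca
Itgb8: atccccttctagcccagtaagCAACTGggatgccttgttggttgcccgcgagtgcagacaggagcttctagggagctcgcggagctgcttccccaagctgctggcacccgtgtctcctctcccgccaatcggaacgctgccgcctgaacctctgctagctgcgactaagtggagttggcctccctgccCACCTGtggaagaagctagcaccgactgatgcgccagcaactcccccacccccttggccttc
Lamb1: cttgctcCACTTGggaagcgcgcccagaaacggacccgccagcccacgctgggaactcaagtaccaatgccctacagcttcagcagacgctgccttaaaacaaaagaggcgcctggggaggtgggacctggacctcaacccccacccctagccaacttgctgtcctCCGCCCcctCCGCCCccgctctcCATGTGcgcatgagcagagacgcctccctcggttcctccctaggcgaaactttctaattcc
Lamb3: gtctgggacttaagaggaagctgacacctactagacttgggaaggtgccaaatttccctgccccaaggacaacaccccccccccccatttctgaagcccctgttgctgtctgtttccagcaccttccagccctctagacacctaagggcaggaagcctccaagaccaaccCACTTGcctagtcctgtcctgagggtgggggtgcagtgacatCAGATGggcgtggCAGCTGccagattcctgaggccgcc
Itga10: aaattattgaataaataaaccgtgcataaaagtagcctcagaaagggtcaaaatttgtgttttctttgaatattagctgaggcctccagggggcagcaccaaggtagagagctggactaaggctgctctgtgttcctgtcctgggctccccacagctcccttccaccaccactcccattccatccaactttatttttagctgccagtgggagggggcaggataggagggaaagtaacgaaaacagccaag

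CANNTG was found in all 5 of the promoters of members high at E18 and not in that of Itga10; it occurs in 66.2% of 32851 promoter windows of this length and in 15 of 21 windows of members. Lamb3 held 3 matches, Itgb8 and Lamb1 2 each, Itga1 and Itga4 1 each. GGGCGG or its complement was found in Itga4 (1) and Lamb1 (2), against 32.7% of all windows. TATAAA, in 12.4% of windows on either strand, and the AP-1 motif TGANTCA, in 6.75%, were in none of the 21. These are matches of letters, not binding sites, and the motifs were chosen after the values were seen.

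From E18 to P3, laminin alpha chains and Itga10 were higher and Lamb1, Lamb3, Itga1 and Itgb8 lower. Of 27 members measured, 4 (14.8%) stood higher at P3 by 2-fold or more, against 4.07% of 12112 genes. A further 4 (14.8%) were lower, against 11.8%, so the lower share was near that of all genes. Among the lower ones, the Lamb1 call held in 4 of 8 alternatives. Quantile normalization gave 5 and 3 members, against 6.57% and 7.21% of all genes, and moved the higher share of all calls from 25.7% to 47.7%. The higher ones were Itga10, Lama3, Lama4 and Lama2. The second Lama3 probe set gave at least 0.03 on the log2 scale, and the Lama3 call held in 4 of 8 alternatives. All 5 laminin alpha genes had a higher signal at P3 than at E18, with a median log2 difference of 1.06, while all 3 laminin beta genes had a lower one, with a median of -1.03. Among all genes the median was -0.15, and quantile normalization moved it to 0.03 and these medians to 1.33 and -0.60. The beta median was -0.41 when probe sets that may detect several transcripts were left out, which drops Lamb3 and the brightest Lamb1 probe set and leaves 2 genes.

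Between E16 and P3 the members higher by 2-fold were Itga10, Itga4, Nid2 and Lama3, and the lower ones Itgb1 and Itgb3. This comparison does not use the E18 array. Of 29 members 4 (13.8%) were higher, against 6.57% of 12189 genes, and 2 (6.90%) were lower, against 15.6%. Among all genes past 2-fold, those higher at P3 made up 29.6%, and 48.9% after quantile normalization, which gave 5 higher and 2 lower members against 10.1% and 10.5% of all genes. Integrin alpha genes had a median log2 difference of 0.25 and integrin beta genes -0.79, beside an all-gene median of -0.17, or 0.02 after quantile normalization. After that normalization the medians of these subfamilies were 0.45 and -0.75. Of 7 integrin beta genes measured 5 were bounds, so the beta median says little of the size.

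Probe sets of 1 gene could be compared in 8 or 9 member genes in each comparison. They had the same sign in 7 of 8 genes for E18 against E16, in 6 of 9 for P3 against E18 and in 5 of 9 for P3 against E16. The widest gaps were in Itga4 for E18 against E16 (0.41 to 2.44 on the log2 scale), Itga6 for P3 against E16 (-1.88 to -0.12) and Lama4 for E18 against E16 (-1.74 to a bound of -0.06).

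Other genes of cell adhesion to matrix were taken from a list of 86, of which 80 had a probe set and 73 were measured at E18 against E16. Of these 10 (13.7%) were higher by 2-fold or more and 12 (16.4%) lower, against 8.10% and 8.13% of all genes. The 4 highest measured on both arrays were Dst (dystonin, a hemidesmosome linker, 6.47-fold), Npnt (nephronectin, the ligand of the Itga8 receptor, 3.70-fold), Col17a1 (a hemidesmosome collagen, 3.70-fold) and Fras1 (a protein under epithelial basement membranes, 3.20-fold). Other probe sets gave log2 differences of 0.73 for Dst, 1.26 for Fras1, and 2.06, -0.57 and a bound of -0.42 for Npnt. The 4 lowest were Smoc2 (a calcium-binding matrix protein, 3.93-fold), Parva (an adhesion plaque adaptor, 3.34-fold), Emilin1 (an elastic fibre protein and integrin ligand, 3.11-fold) and Fbln2 (fibulin, 3.07-fold). Of 25 adhesion plaque genes 0 were higher and 5 (20.0%) lower, against the same 8.10% and 8.13%. They were Parva, Flna, Tns3, Tns1 and Fyn, the latter 4 named after their values were seen. The direction for Fyn depends on the probe set, since another gave a log2 difference of 0.67, higher at E18. For Tns3 and Tns1, another measured probe set gave -0.18 and -0.75, short of 2-fold.

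At P3 against E18, 12 of 72 listed genes (16.7%) were higher and 5 (6.94%) lower, against the 4.07% and 11.8% of all genes. Col1a1, the main collagen of dentin and bone, was 41.7-fold higher by its brightest probe set but 0.38 on the log2 scale by another. Tnc (tenascin) was 6.89-fold, Sparc, a collagen-binding protein, 5.83-fold (-0.04 on the log2 scale by 1 of 2 others) and Tns1 (tensin) 3.28-fold higher. Dst was 5.70-fold, Efna5 2.48-fold, Fras1 2.32-fold and the tetraspanin Cd9 2.19-fold lower; another Dst probe set gave 1.16 in the higher direction on the log2 scale. Of 25 adhesion plaque genes 6 were higher and 0 lower. They were Tns1, Parvb, Ilk, Lims1, Tns3 and Tln1, of which all but Tns1 were named after their values were seen. Other measured probe sets gave log2 differences of -0.38 and -0.46 for Lims1, 0.01 for Tns3 and at least 0.06 for Tln1. Quantile normalization reduced the 5 lower genes of the list to 1, where 7.21% of all genes were lower.

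At P3 against E16, 10 of 73 listed genes (13.7%) were higher and 12 (16.4%) lower, against 6.57% and 15.6% of all genes, so the lower share was near that of all genes. Quantile normalization made 17 higher, against 10.1% of all genes. Tnc was 14.5-fold, Sparc 6.67-fold, Tgfbi, a matrix protein that binds integrins, 4.39-fold and Npnt 2.60-fold higher. Other probe sets of Npnt gave log2 differences of 0.64, -0.16 and -0.32, and those of Sparc 3.15 and 0.12. Smoc2 was 7.61-fold, Vcam1, the cell surface ligand of the Itga4 receptor, 3.50-fold, Flna (filamin) 2.86-fold and Efna5 2.58-fold lower. Itga4 and Vcam1 therefore differed in opposite directions between these arrays, though other Vcam1 probe sets gave log2 differences of at least 0.12 and of -0.09.

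**Figure D4:**
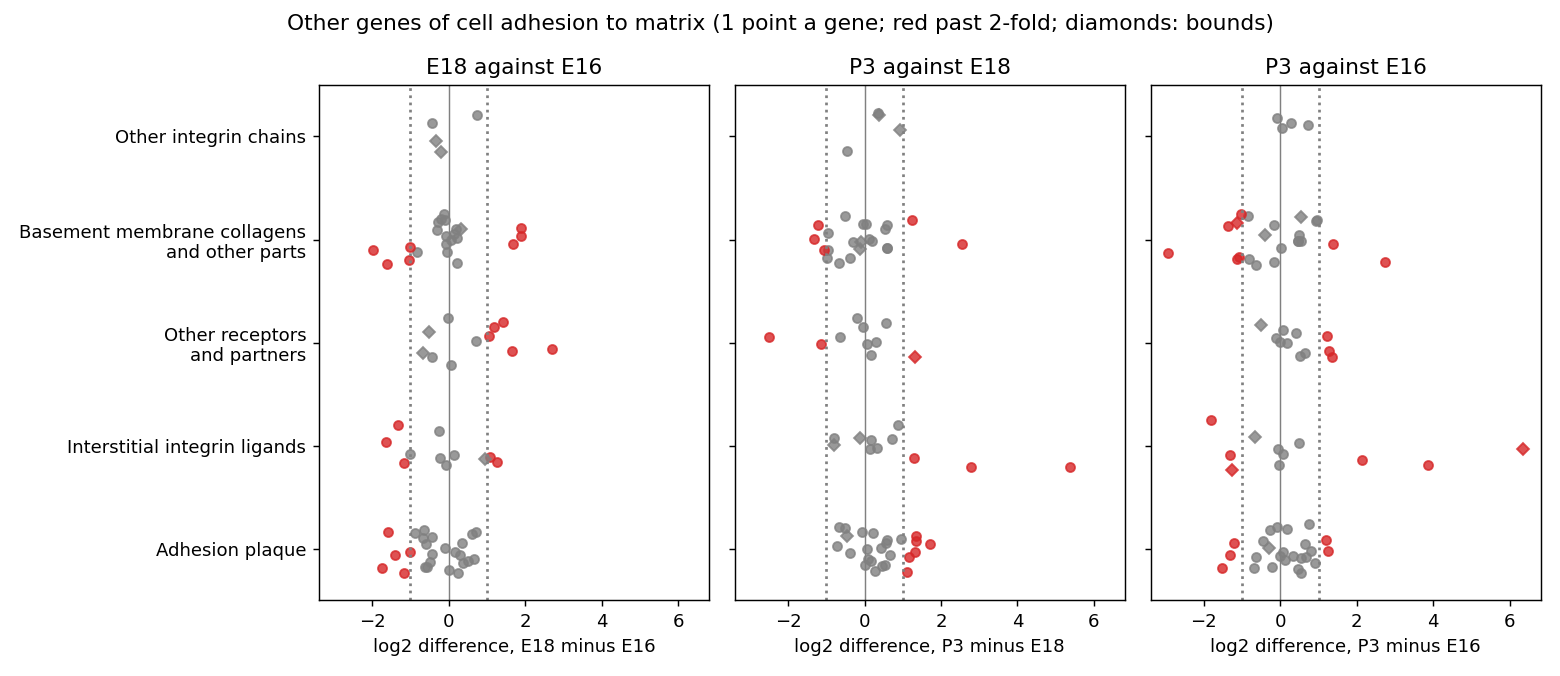
Log2 difference (horizontal axis) of other genes of cell adhesion to matrix in the 3 comparisons, by class; each point is the brightest probe set of 1 gene, red where past 2-fold (dotted lines), diamonds are bounds, and vertical scatter within a class has no meaning. Adhesion plaque genes past 2-fold are 5 of 25 lower at E18 than at E16 and 6 of 25 higher at P3 than at E18. The shares of all genes were 8.13% and 4.07%.

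Of 5 other integrin chains in the list (Itgav, Itga2b, Itgal, Itgax and Itgae), 4 were measured and 0 were called at 2-fold. Of all genes, 16.2%, 15.9% and 22.2% were called in either direction at E18 against E16, P3 against E18 and P3 against E16. The differences of Itgal and Itgax that involve E18 are bounds, of at least 1.92-fold for Itgal at P3 against E18. Itgav, the alpha partner of Itgb5, Itgb6 and Itgb8, read 1441, 2395 and 1746. Itga2b, the platelet chain, read 179.3, 133.1 and 169.8. The leukocyte chains Itgal and Itgax read 94.7, 60.9 and 157.1, and 103.1, 65.4 and 106.5, and Itgae was below the floor on all arrays. Type IV collagen chains, the partners of nidogen in the basement membrane, were near level for Col4a1 (2847, 2504 and 2552), named after its values were seen. For Col4a5, P3 was 2.35-fold above E18 by the brightest probe set, while another gave a log2 difference of 0.18.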

How the data were processed

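RNA of dental papillae at 3 stages was hybridised to 1 array each. Labelling took 2 cycles and gave biotin cRNA, per the labels' protocols. The submitters' processing notes name GCOS; no source used here states the scaling or centring. The deposited values are ratios: in 90.4% of 45101 probe sets the middle value was 1 within 1e-06. The remaining 4347 behaved as if divided by a minimum of 10, with 99.98% of values whole to within 0.01 of a step. The steps gave scale factors of 0.7177 (E16) and 1.0802 (E18) relative to P3.

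Signals with 1 decimal were recovered as the smallest whole steps that gave all 3 ratios within a relative 3e-07. Solutions above a signal of 436.8, which include 15 member probe sets, may be chance and understated; ratios are not affected. The recovery was tested on simulated data. The platform annotation lists 35890 probe sets, 34958 with 1 symbol and 932 with several; 64 controls and 1 unresolved probe set were left out. Python 3.11.15, numpy 2.4.6, pandas 2.3.3 and numba 0.67.0 were used.

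Members and lists were chosen with earlier results of these data known. All members are named, with the 4 highest and 4 lowest listed genes past 2-fold. Alternatives were quantile normalization, median scaling, the floor halved or doubled, medians over probe sets, leaving out probe sets that may detect several transcripts, and a 1.5-fold threshold. A recovery tolerance of 4e-07 was added after seeing the data; a tighter one missed true solutions and was not used.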

Additional observations from a re-analysis of the deposited data

How the results depend on the processing

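No paired analysis was possible because each stage has 1 array. The cause of each shift below was not tested, beyond what a setting does by construction. Counts of members past 2-fold (higher and lower) were 5 and 4 of 29 at E18 against E16 and 4 and 4 of 27 at P3 against E18. At P3 against E16 they were 4 and 2 of 29. The shares of all genes were 8.10% and 8.13%, 4.07% and 11.8%, and 6.57% and 15.6%. For the settings below, the share of all genes called in the same direction follows in brackets. With the median over measured probe sets, 3 were higher (6.11%) and 2 lower (5.88%) at E18 against E16. The same setting gave 2 higher (3.25%) at P3 against E18 and 4 lower (12.4%) at P3 against E16. Without probe sets that may detect several transcripts, 3 were higher at E18 against E16 (7.13%). There, 2 were lower at P3 against E18 (9.81%) and 2 higher at P3 against E16 (6.39%). With the floor halved, 7 were lower at E18 against E16 (8.51%) and 4 at P3 against E16 (14.9%). With it doubled, 2 (8.07%) and 1 (16.8%) were lower in these comparisons, and 2 were higher at P3 against E16 (6.03%). The deposited ratios over all probe sets with no floor gave 7 higher at P3 against E18 (9.38%). They gave 4 lower at P3 against E16 (13.4%). A 1.5-fold threshold gave 8 higher (17.7%) and 7 lower (19.9%) at E18 against E16. At P3 against E18 it gave 7 higher (11.2%) and 8 lower (25.7%), and at P3 against E16 8 lower (30.1%). Of the 29, 27 and 29 members measured, the lower counts at 1.5-fold lie near the shares of all genes.

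In the list of other adhesion genes, quantile normalization gave 17 higher at P3 against E16 (10.1% of all genes) and 1 lower at P3 against E18 (7.21%). The deposited ratios over all probe sets gave 9 lower at P3 against E18 (11.7%). The 1.5-fold threshold gave 16 higher (17.7%) and 20 lower (19.9%) at E18 against E16. It gave 20 higher (11.2%) and 14 lower (25.7%) at P3 against E18, and 19 higher (13.5%) at P3 against E16.

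Of the subfamily medians, the floor doubled moved integrin alpha at P3 against E18 to -0.38, integrin beta at E18 against E16 to 0.01 and laminin gamma at P3 against E18 to 0.04, and left no gamma value at E18 against E16. The floor halved moved integrin beta at P3 against E16 to -1.41. The deposited ratios over all probe sets gave -0.12 for integrin beta at E18 against E16, 0.65 for laminin beta there, and 0.77 for laminin gamma and 0.65 for linkers at P3 against E16. Laminin beta at E18 against E16 became 0.71 with the median over measured probe sets and 0.33 without probe sets that may detect several transcripts, which also gave -0.41 at P3 against E18. Other medians moved by less than the spread between probe sets, and median scaling and the added tolerance changed no count or median beyond that. Among single genes, 2 turned sign, Itgb1 at E18 against E16 (0.04, deposited ratios over all probe sets) and Lama3 at P3 against E16 (-0.47, without probe sets that may detect several transcripts).

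Signal over background limits 10 members, which were below the floor on at least 1 array, and with 1 array per stage no difference has a replicate check.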
